A study of Mus musculus with 18 samples.

Results

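Cerebellum of double-mutant mice was compared with cerebellum of wild-type mice by small-RNA sequencing. The double mutants (CyrKOCdr1as671) lack the long noncoding RNA Cyrano on both alleles and also carry an 18-nt deletion in Cdr1as, a circular RNA, at its miR-671 site. The wild-type mice (WT) carry neither change. All animals were males of strain C57BL/6J aged 1 month, with 3 biological replicates in each group, so the comparison takes 6 of the 18 libraries of the series. Members are all miRNAs listed in the count table of this comparison, 1841 in all, of which 1312 had a read in at least 1 of the 6 libraries and 529 had none. After the filter on low counts 662 were tested. The comparison asks which miRNAs change when Cyrano and that site are lost together. The libraries hold miRNA counts only, so Cyrano and Cdr1as themselves were not measured and the genotypes were not checked on them.

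A miRNA guides an Argonaute protein to target RNAs by pairing through its seed, bases 2 to 8 from its 5′ end. Pairing that also extends far into the 3′ part of a miRNA can lead to decay of the miRNA itself, called target-directed miRNA degradation, and Cyrano carries such a site for miR-7. Cdr1as carries many seed-matched sites for miR-7 and a nearly fully paired site for miR-671, through which miR-671 directs its slicing. A miRNA hairpin gives a 5p and a 3p strand, of which usually one, the guide, is kept and the other, the passenger, is degraded.

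The sequences that carry the main changes are shown for the miR-7 guides and a miR-7 passenger strand, for miR-671-5p, and for the strands of miR-409, miR-411 and miR-379 that changed, with the seed in capitals. They show which of the changed strands share a seed, and so a set of seed-matched targets. All are RefSeq mature sequences, 5′ to 3′, with positions on GRCm38.p6.
miR-7a-5p: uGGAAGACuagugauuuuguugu
miR-7b-5p: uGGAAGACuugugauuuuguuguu
miR-7a-1-3p: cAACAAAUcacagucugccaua
miR-671-5p: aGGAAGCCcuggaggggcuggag
miR-409-3p: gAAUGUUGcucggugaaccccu
miR-409-5p: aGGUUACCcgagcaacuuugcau
miR-411-3p: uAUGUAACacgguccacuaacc
miR-379-3p: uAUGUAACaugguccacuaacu
miR-379-5p: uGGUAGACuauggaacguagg

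The miR-7 guides share the seed GGAAGAC and, counted from 1 at the 5′ end of miR-7a-5p, differ by A10U and by length, 23 and 24 nt. miR-7a-5p is encoded at chr13:58392841-58392863 (minus strand, Mir7-1, in an intron of Hnrnpk) and at chr7:78888295-78888317 (plus strand, Mir7-2, in no annotated host gene). miR-7b-5p comes from chr17:56243017-56243040 (plus strand, Mir7b, no host gene). miR-671-5p lies at chr5:24592132-24592154 (plus strand) in an exon of Chpf2 that overlaps an exon of Smarcd3 on the other strand. miR-411-3p and miR-379-3p share the seed AUGUAAC and differ by U10C and U22C, counted on miR-379-3p. Their hairpins lie next to each other in the imprinted miR-379/410 cluster, with miR-379-3p at chr12:109709102-109709123 and miR-411-3p at chr12:109710225-109710246 (plus strand). miR-409-3p, of the same cluster, is at chr12:109743204-109743225 in an intron of the noncoding RNA Mirg.

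Depth ran from 8817113 to 12209429 miRNA reads over the 6 libraries, each with reads of 1042 to 1108 miRNAs. WT libraries were somewhat deeper (10047721 to 12209429) than double-mutant libraries (8817113 to 10541539), and RNA integrity numbers ran from 8.9 to 9.1 and from 8.5 to 9.5. Replicates were alike but distinct: their log2 levels across miRNAs had r = 0.992 to 0.998, while their counts differed by a chi-square of 62 to 381 per degree of freedom, far more than counting error. Brain markers marked the tissue: the neuronal miR-124-3p was 18.9% to 22.9% of the reads in WT and 16.5% to 18.6% in the double mutant.

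Against WT, 17 of the 662 tested miRNAs changed (2.57%) by edgeR's quasi-likelihood test at an adjusted p under 0.05. Of these 13 rose (1.96%) and 4 fell (0.604%). Besides the miR-7 guides, which increased 79.9-fold and 90.5-fold, no miRNA that changed moved by more than 2.83-fold. The whole distribution was narrow, with a median log2 change of -0.01 and the 5th and 95th percentiles at -0.52 and 0.41. Levels are given as CPM, the reads of a miRNA in 1000000 miRNA reads of its library. In CPM the groups did not overlap for any of the 17, against a background of 4.83% of the tested miRNAs with every double-mutant library above every WT library and 21.8% with every one below. CPM carries no scaling beyond the library totals, and with such scaling the median log2 change was -0.09.

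**Figure D1:**
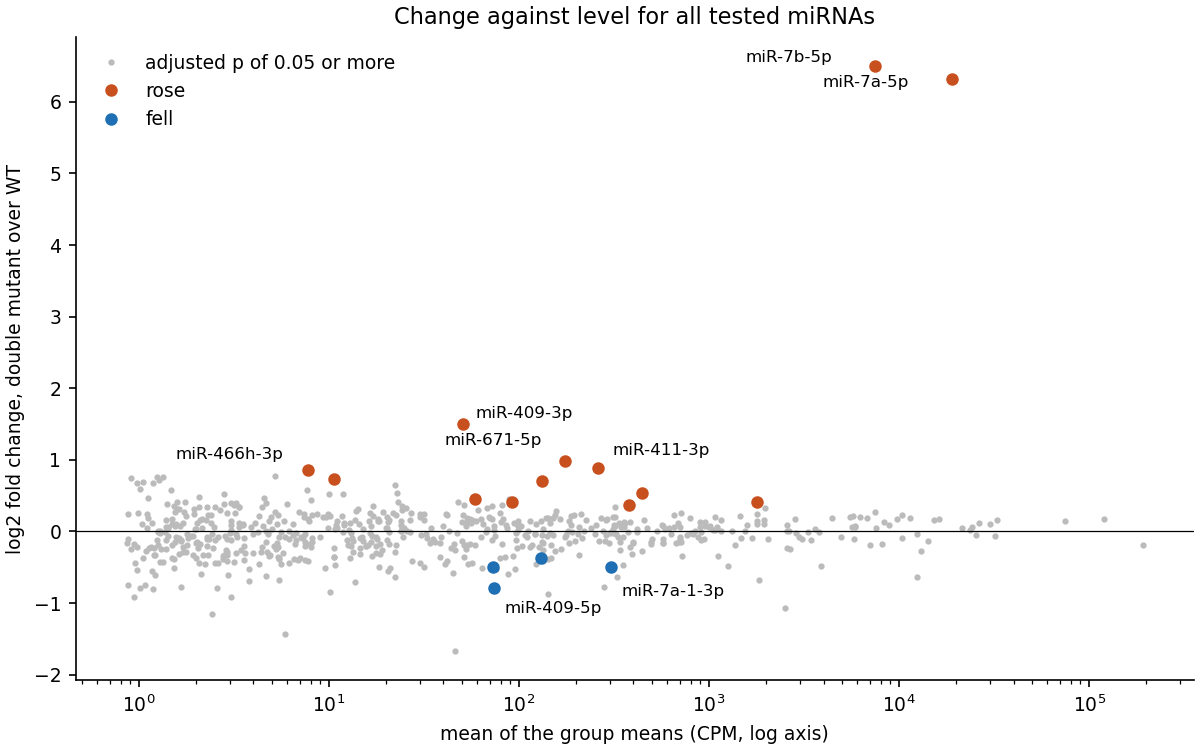
Log2 fold change of the double mutant over WT (vertical axis) against the mean of the group means in CPM (horizontal axis, log scale) for the 662 tested miRNAs, 1 point each. Orange points rose, blue points fell and grey points did not pass an adjusted p of 0.05; the miR-7 guides stand above 6 while all other miRNAs lie between -1.67 and 1.50.

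The size of the list depended on single libraries. It held 58 miRNAs without WT library 2, 8 without WT library 1 and 6 without WT library 3, double-mutant library 2 or double-mutant library 3, and it stayed at 17 without double-mutant library 1. miR-7a-5p, miR-7b-5p, miR-409-3p, miR-411-3p, miR-671-5p and miR-379-3p passed the threshold in all 6 of these fits. They were the 6 that remained in each of the fits with 6 calls, where the other 11 lost theirs, and over all alternatives the adjusted p of those 11 reached at most 0.28. Same-numbered WT and double-mutant libraries deviated together (correlations of 0.46 to 0.64), but so did WT library 2 and double-mutant library 3 (0.40). The labels do not say what a replicate number marks, so a block by it rests on these counts alone. With the replicate number as a block 35 miRNAs changed (5.29%), among them all 17. Of the 35, 16 rose (2.42%) and 19 fell (2.87%). The authors' deposited table gives 43 miRNAs with an adjusted p under 0.05 of the 537 that have one (8.01%), 19 higher and 24 lower, and also includes all 17.

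The miR-7 guides, which are best known from neuroendocrine tissues, rose from minor miRNAs to some of the most abundant in the tissue. miR-7a-5p was at 438, 542 and 507 CPM in the WT libraries and at 33323, 36859 and 41716 CPM in the double-mutant libraries. Every double-mutant library lay far above every WT library, and the log2 change was 6.32 (SE 0.13, adjusted p = 2.79e-10). By reads miR-7a-5p was the 122nd, 111th and 119th miRNA of the WT libraries and ranked 4 in each double-mutant library.

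miR-7b-5p was at 145, 194 and 181 CPM in WT and at 13382, 14598 and 16255 CPM in the double mutant. The groups were as far apart as for miR-7a-5p, with a log2 change of 6.50 (SE 0.14, adjusted p = 5.40e-10), and its rank went from 198, 177 and 180 to 16, 15 and 15. As a seed family the guides went from 583, 736 and 689 CPM to 46704, 51457 and 57971 CPM, a rise of 84.1-fold. They made up 0.0583% to 0.0736% of the miRNA reads in WT and 4.67% to 5.80% in the double mutant. miR-7a-5p was 73.7% to 75.2% of both guides in WT and 71.4% to 72.0% in the double mutant, so miR-7b-5p took a slightly larger part of the pair there.

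The passenger strands of the 3 miR-7 hairpins did not pass as higher, unlike the guides. miR-7a-1-3p, from the Hnrnpk intron, was at 351, 369 and 376 CPM in WT and at 271, 237 and 230 CPM in the double mutant. The double-mutant libraries all lay below the WT libraries, and the strand fell, with a log2 change of -0.49 (SE 0.08, adjusted p = 0.0072). miR-7a-2-3p was near 4.5 CPM in every library, from 4.08 to 4.88 in WT and from 4.27 to 4.65 in the double mutant, with a log2 change of 0.08 (adjusted p = 0.83) that was -0.01 when libraries were scaled by totals alone. miR-7b-3p was at 14.3, 11.4 and 26.2 CPM in WT and at 11.8, 9.11 and 9.07 CPM in the double mutant (log2 change -0.70, adjusted p = 0.30). Its WT libraries spread widely and overlapped the mutant ones.

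The strand ratio within a hairpin needs no scaling between libraries and was compared for the 224 hairpins whose strands both passed the filter. It changed at 9 of them (4.02%) by limma, and the groups did not overlap at any of the 9, against 28.1% of all hairpins without overlap. On the log2 scale the 5p/3p ratio of miR-7a-1 was 0.43 ± 0.12 in WT and 7.24 ± 0.28 in the double mutant (SD, n = 3 each). Reads of miR-7a-5p thus moderately exceeded those of miR-7a-1-3p in WT and far exceeded them in the double mutant. The ratio rose by 6.81 (SE 0.14, adjusted p = 2.03e-10) for miR-7a-1, by 6.24 (SE 0.16, adjusted p = 7.43e-10) for miR-7a-2 and by 7.12 (SE 0.30, adjusted p = 5.63e-08) for miR-7b. Since miR-7a-5p comes from both miR-7a hairpins, its reads enter both ratios, and neither ratio gives the strand balance of a single hairpin. The exact two-sided permutation test gave p = 0.1 for each miR-7 hairpin and for miR-671, the smallest value that 3 against 3 libraries allow.

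miR-671-5p, the strand that pairs with Cdr1as, rose. It was at 111, 129 and 127 CPM in WT and at 220, 232 and 231 CPM in the double mutant. No library of one group came near the other, and the log2 change was 0.98 (SE 0.08, adjusted p = 3.54e-05). Its other strand, miR-671-3p, was at 21.0, 20.1 and 22.6 CPM in WT and at 15.8, 18.0 and 16.7 CPM in the double mutant, lower in each library but without passing the test (log2 change -0.25, adjusted p = 0.26). The log2 5p/3p ratio of the hairpin rose from 2.52 ± 0.14 to 3.75 ± 0.06 (SD, n = 3 each), a difference of 1.23 (SE 0.13, adjusted p = 0.00015).

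Strands of 3 hairpins of the imprinted miR-379/410 cluster, a large group of placental-mammal miRNAs transcribed from the maternal chromosome and abundant in brain, made up 3 of the 4 other calls that passed in every fit. miR-409-3p was at 24.0, 29.2 and 29.3 CPM in WT and at 73.9, 73.8 and 72.3 CPM in the double mutant. It rose with a log2 change of 1.50 (SE 0.10, adjusted p = 5.97e-06), the change of largest size after miR-7 among the miRNAs that passed, and the mutant libraries were nearly identical. The opposite strand, miR-409-5p, fell from 106, 82.6 and 98.8 CPM to 62.9, 52.8 and 41.6 CPM (log2 change -0.79, SE 0.16, adjusted p = 0.036). The strands thus changed in opposite directions, with the call of miR-409-5p kept in 13 of 18 alternatives. The log2 5p/3p ratio was 2.14, 1.50 and 1.75 in WT and -0.23, -0.48 and -0.80 in the double mutant (difference -2.30, SE 0.19, adjusted p = 1.92e-05), so the 5p strand had more reads in every WT library and the 3p strand had more in every double-mutant library.

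miR-411-3p was at 174, 200 and 192 CPM in WT and at 348, 322 and 320 CPM in the double mutant. It rose in all 3 libraries (log2 change 0.89, SE 0.07, adjusted p = 3.54e-05). The log2 change of its other strand, miR-411-5p, was 0.10 (adjusted p = 0.56). In this hairpin, too, the strand with more reads differed between the groups: the log2 5p/3p ratio was 0.41 ± 0.09 in WT and -0.38 ± 0.11 in the double mutant (SD, n = 3 each), a difference of -0.79 (SE 0.10, adjusted p = 0.00065).

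miR-379-3p, which has the seed of miR-411-3p, was at 98.1, 107 and 108 CPM in WT and at 172, 163 and 147 CPM in the double mutant (log2 change 0.70, SE 0.08, adjusted p = 0.0008). Here both strands of a hairpin rose: miR-379-5p went from 321, 438 and 367 CPM to 501, 504 and 535 CPM (log2 change 0.54, SE 0.10, adjusted p = 0.019). Its groups did not overlap, but WT library 2 lay close to the mutant libraries. Together the 2 strands with the seed AUGUAAC amounted to 293 ± 18.5 CPM in WT and 490 ± 26.9 CPM in the double mutant (SD, n = 3 each), a rise of 1.80-fold.

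**Figure D2:**
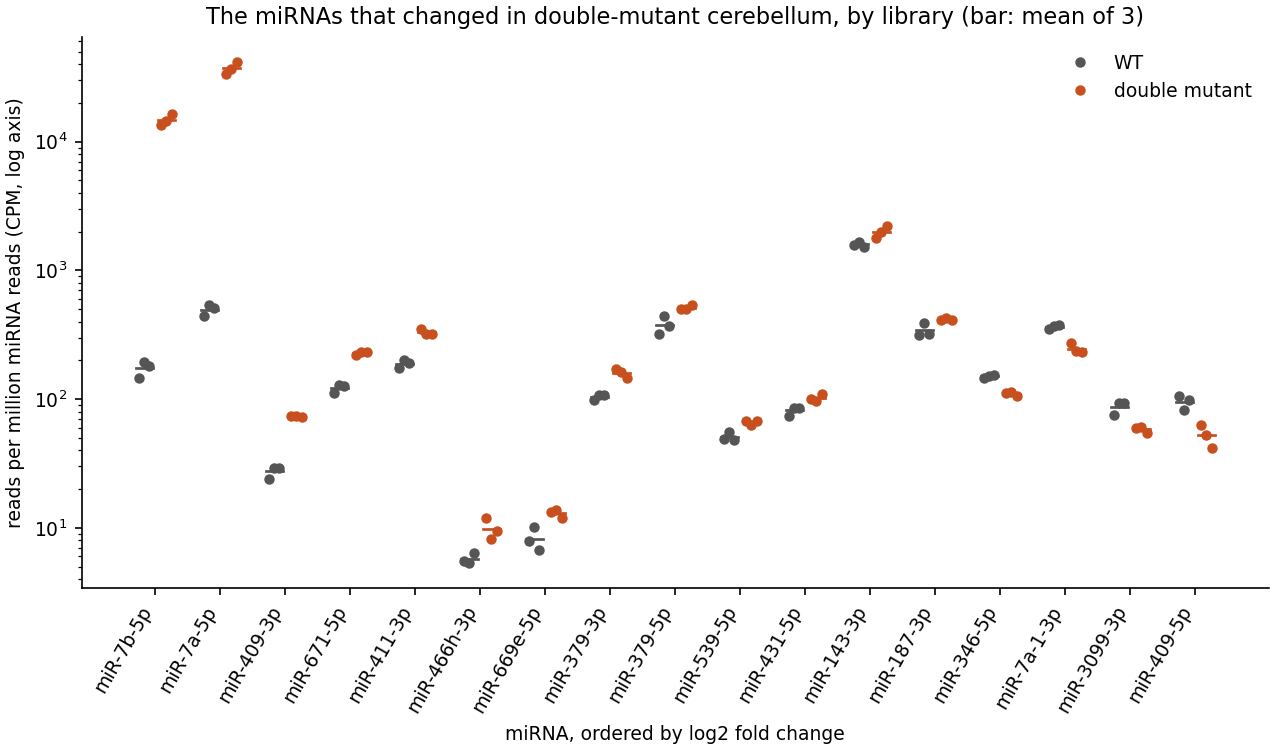
Level of each of the 17 miRNAs that changed, in CPM on a log axis, by library: grey points are the 3 WT libraries, orange points the 3 double-mutant libraries, and each bar is the mean of 3. The miRNAs are ordered by log2 fold change, from miR-7b-5p on the left to miR-409-5p on the right, and no group overlaps its counterpart.

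The strand ratio also changed at 3 further hairpins, each of which lost its call in some fits without 1 library. The log2 5p/3p ratio of miR-9, a neural progenitor and neuron miRNA, rose from 2.97 ± 0.12 to 3.43 ± 0.13 (SD, n = 3 each; difference 0.45, SE 0.10, adjusted p = 0.032), while neither strand passed on its own. That of miR-187 fell by 0.76 (SE 0.17, adjusted p = 0.032) and that of miR-669e rose by 1.22 (SE 0.27, adjusted p = 0.032). Those of miR-7a-1, miR-7a-2, miR-7b, miR-409, miR-671 and miR-411 passed in all 6 fits without 1 library. The count of ratios was 30 without WT library 2 and 6 without WT library 1 or 3. With the replicate block 40 ratios passed, among them the 9, in a fit that has 2 residual degrees of freedom. In that fit the spread of each of the 224 hairpins was taken from a trend over read level, not from its own libraries.

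**Figure D3:**
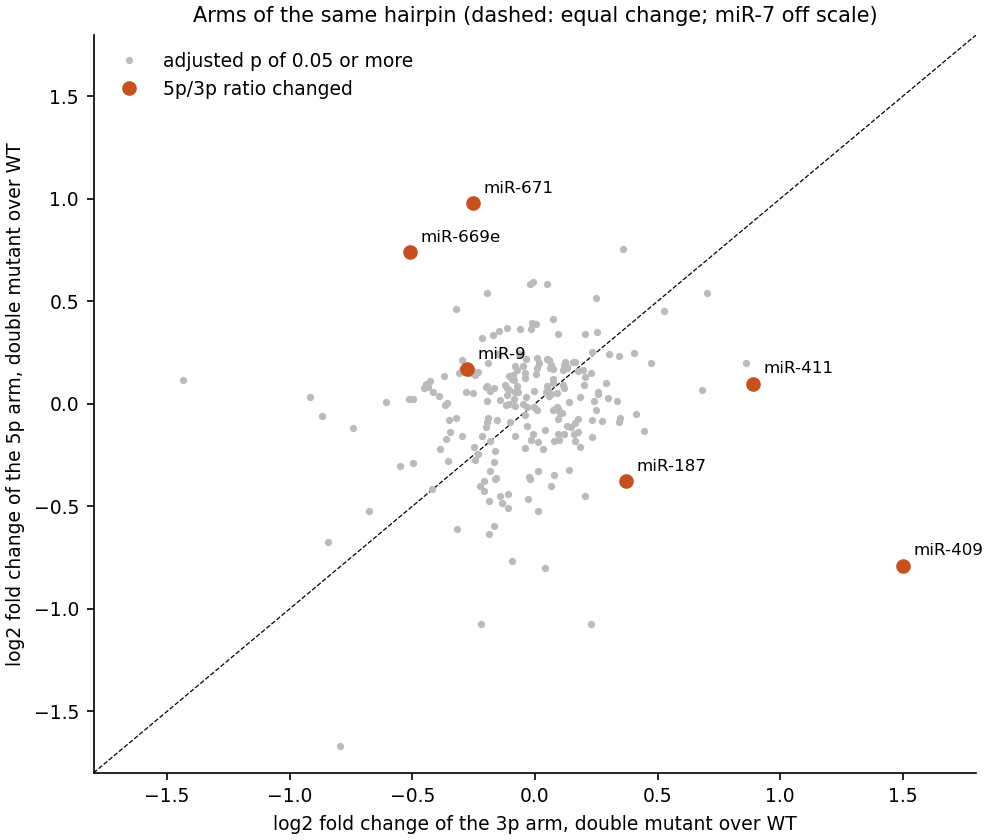
Log2 fold change of the 5p strand (vertical axis) against that of the 3p strand (horizontal axis), double mutant over WT, for the hairpins with both strands tested; the 3 miR-7 hairpins, with 5p changes above 6, are off the scale. On the dashed line both strands change equally; orange points are the ratios that changed, with miR-409 at 1.50 and -0.79 and miR-671 at -0.25 and 0.98.

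miR-409-5p, miR-379-5p and miR-7a-1-3p, given above, held the call in 13, 14 and 15 of 18 alternatives. The other 8 miRNAs that passed each lost the call in several of the alternatives. It held in 7 of 18 for miR-431-5p and in 8 of 18 for miR-187-3p, so both lost it in most. For the others it held in 11 to 13 of the 17 or 18 that tested them. Those of the imprinted region were miR-539-5p, which rose from 49.3, 55.4 and 48.4 CPM to 67.5, 62.8 and 67.0 CPM (log2 change 0.45, SE 0.09, adjusted p = 0.031), and miR-431-5p, which rose from 73.6, 85.8 and 85.3 CPM to 100.2, 97.2 and 110 CPM (log2 change 0.41, SE 0.09, adjusted p = 0.049). miR-431 lies opposite an exon of Rtl1, a retrotransposon-derived imprinted gene. miR-143-3p, a smooth-muscle and vessel-wall miRNA, rose from 1563, 1674 and 1532 CPM to 1792, 1990 and 2205 CPM (log2 change 0.41, SE 0.09, adjusted p = 0.044). miR-187-3p rose from 317, 388 and 319 CPM to 408, 428 and 414 CPM (log2 change 0.37, SE 0.08, adjusted p = 0.044). In each of these 4 the lowest mutant library lay just above the highest WT library.

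Of the miRNAs from introns, miR-3099-3p (Usp29) fell from 75.4, 92.6 and 93.3 CPM to 59.1, 61.2 and 54.3 CPM (log2 change -0.50, SE 0.10, adjusted p = 0.029). miR-346-5p, from an intron of Grid1, which encodes a glutamate receptor of the delta type, fell from 147, 150 and 153 CPM to 111, 114 and 105 CPM (log2 change -0.37, SE 0.08, adjusted p = 0.036). The mutant libraries lay below all WT libraries for both. miR-466h-3p rose from 5.50, 5.32 and 6.37 CPM to 11.9, 8.24 and 9.41 CPM (log2 change 0.86, SE 0.17, adjusted p = 0.029) and miR-669e-5p from 7.90, 10.1 and 6.67 CPM to 13.3, 13.8 and 11.9 CPM (log2 change 0.74, SE 0.15, adjusted p = 0.036). Both belong to the large rodent-specific repeat cluster in Sfmbt2, whose near-identical copies can share reads, so the assignment between its members is uncertain.

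Summed over the miRNAs that share a seed, 9 of 482 families changed (1.87%). Besides the families of the miR-7 guides, miR-409-3p, miR-411-3p with miR-379-3p, and miR-671-5p, these were the families of miR-7a-1-3p, miR-379-5p with miR-1193-5p, miR-409-5p, miR-539-5p and miR-3099-3p. The miR-671-5p family, a single miRNA here, doubled, from 122 ± 9.55 to 227 ± 6.82 CPM (SD, n = 3 each). Without 1 library the count was 44 (WT library 2), 12 (double-mutant library 1), 7 (WT library 1), 5 (WT library 3 or double-mutant library 3) or 4 (double-mutant library 2). The sums held only the 1573 mature names matched in RefSeq, with 75.7% of the reads, so members without a match were left out. A family sum does not depend on how reads were divided among matched miRNAs with the same seed. It can depend on the division with an unmatched member or between relatives with different seeds. Such relatives are miR-7a-1-3p and miR-7a-2-3p, which differ by A7G, A10C and U21C (counted on miR-7a-1-3p).

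Most tested miRNAs of the imprinted region did not pass. In the miR-379/410 cluster 59 miRNAs were tested, of which 5 rose and 1 fell, against 1.96% and 0.604% of all tested miRNAs. The median log2 change was 0.005 against -0.01 over all tested, and 30 of the 59 were above 0 (20 with scaling by library totals). With the replicate block 4 fell in place of 1, against 2.87% of all tested miRNAs. These were miR-409-5p, miR-494-3p, miR-496a-3p and miR-329-5p, the last chosen after its values were seen. The summed level of the cluster was 13109 to 14271 CPM in WT and 13128 to 13734 CPM in the double mutant, so the groups overlapped. Of 25 tested miRNAs of the neighbouring miR-127 and miR-433 group 1 rose and none fell, against 1.96% and 0.604% of all tested miRNAs. Their median log2 change was 0.05. Next in p below the threshold stood miR-494-3p, at 21.3, 22.6 and 21.9 CPM in WT and 16.6, 14.4 and 13 CPM in the double mutant (log2 change -0.50, adjusted p = 0.055). miR-496a-3p (log2 change -0.45, adjusted p = 0.061) and miR-3072-3p (log2 change -0.41, adjusted p = 0.079) also lie in the region.

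**Figure D4:**
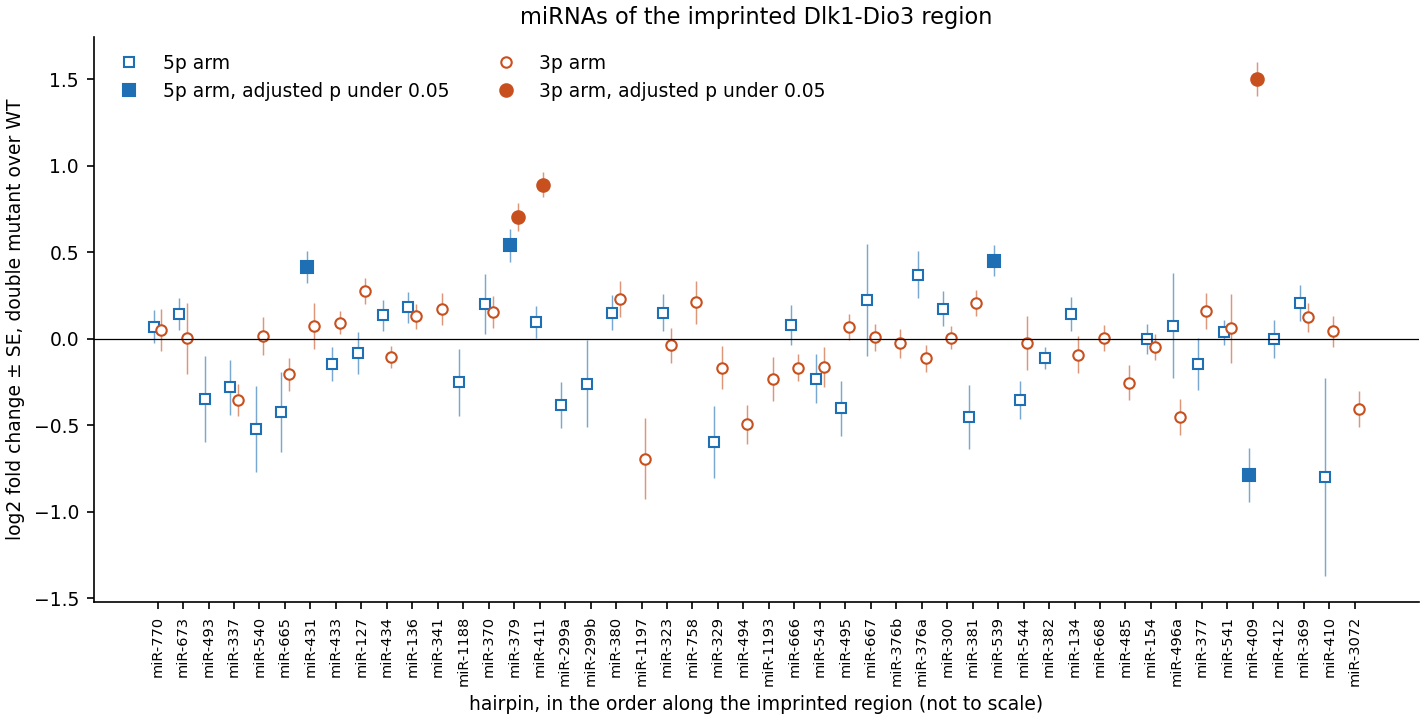
Log2 fold change with its SE for the 80 of 84 tested miRNAs of the imprinted region that have a locus in the annotation, by hairpin in genomic order (48 hairpins, not to scale). Blue squares are 5p strands and orange circles 3p strands, filled where the adjusted p is under 0.05. The highest values are 1.50 for miR-409-3p, 0.89 for miR-411-3p and 0.70 for miR-379-3p. The lowest are -0.80 for miR-410-5p, not filled, and -0.79 for miR-409-5p, filled. Filled points include miR-539-5p and miR-431-5p as well.

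The tissue's most abundant miRNAs differed little. The 10 with the highest WT mean had log2 changes from -0.19 (miR-124-3p) to 0.17 (miR-9-5p), and none passed. Of 11 tested neuronal miRNAs none passed, with a median log2 change of 0.05, and with the replicate block miR-9-3p fell (log2 change -0.28, adjusted p = 0.042). None of 4 oligodendrocyte miRNAs passed, with a median of 0.17. Within them miR-219a-5p was at 4405, 2274 and 3641 CPM in WT and at 1695, 1759 and 1219 CPM in the double mutant, without overlap (log2 change -1.07, adjusted p = 0.18). The authors' deposited table gives it the same log2 change, -1.07, with an adjusted p of 0.015. The 3 other oligodendrocyte miRNAs were above 0, and miR-338-3p was at 4408 to 5988 CPM in WT and 5080 to 6103 CPM in the double mutant. Among the 3, miR-219a-2-3p (log2 change 0.23, adjusted p = 0.27) is the other strand of a miR-219a hairpin. The log2 5p/3p ratio of miR-219a-2 differed by -1.24 (limma, adjusted p = 0.095) and that of miR-219a-1 by -0.81 (adjusted p = 0.21). miR-219a-5p reads enter both ratios. In whole tissue, fewer cells of a type and less of a miRNA per cell cannot be told apart.

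Of other cell types, 9 choroid plexus miRNAs had a median log2 change of -0.08 and 6 vessel miRNAs one of -0.07, with miR-143-3p the only member of either to pass. The 5 members of the miR-200 group, epithelial miRNAs, of which 4 were tested and none passed, had few reads, at a summed 7.45 to 13 CPM in WT and 3.78 to 8.82 CPM in the double mutant. All 7 tested immune miRNAs and all 3 erythroid miRNAs lay below 0, with medians of -0.15 and -0.63, and none passed. With the replicate block the immune miR-223-3p, named after its values were seen, fell (log2 change -0.45, adjusted p = 0.024). The summed erythroid level, which follows blood left in the tissue, was 13913, 6326 and 32949 CPM in WT and 16004, 5405 and 10999 CPM in the double mutant. WT library 3 stood highest, and the groups overlapped. Without that library all 3 erythroid and 2 of the 7 immune miRNAs were above 0. With the erythroid level as a covariate in a fit of the 12 cerebellum libraries, 21 miRNAs passed, 11 higher and 10 lower, beside 17 in the main fit of 6 libraries. These fits differ in both the libraries and the covariate, so the counts do not give the effect of the covariate alone. The log2 changes of miR-7a-5p (6.34), miR-409-3p (1.46), miR-411-3p (0.87), miR-671-5p (0.98) and miR-379-3p (0.69) were close to those of the main fit.

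**Figure D5:**
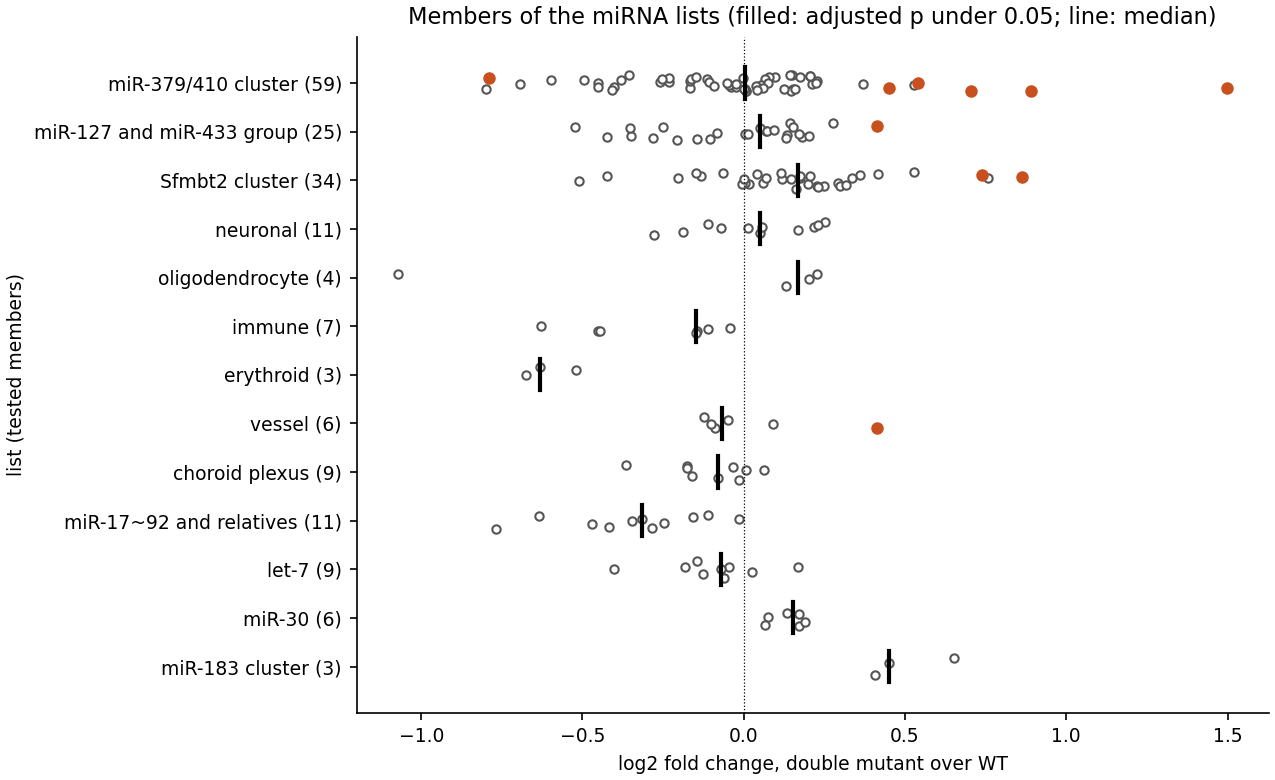
Log2 fold change of the double mutant over WT for the tested members of 13 lists (horizontal axis), 1 point each, with the number of tested members in parentheses. Filled points have an adjusted p under 0.05 and the vertical line is the median of the list; most medians lie within 0.2 of 0, with the erythroid list at -0.63 and the miR-183 cluster at 0.45.

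Among miRNA families, the miR-17~92 cluster and its relatives, proliferation-linked miRNAs, had no member that passed. All 11 tested members were below 0, with a median log2 change of -0.32, against 344 of 662 below 0 over all miRNAs, and 9 of the 11 were below 0 without WT library 3. Their summed level was 7293, 6648 and 7350 CPM in WT and 6562, 5141 and 4635 CPM in the double mutant, so every mutant library was below every WT library. The libraries of single members did not overlap, with the double mutant lower, for 3 of the 11, against 21.8% of all tested miRNAs. With the replicate block 3 of the 11 fell, against 2.87% of all tested miRNAs. Among the 3 was miR-17-5p, at 452, 322 and 447 CPM in WT and 275, 229 and 241 CPM in the double mutant (block adjusted p = 0.0068, against 0.079 without the block).

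In the other lists few members moved. Of 34 tested miRNAs of the Sfmbt2 cluster 7 were below 0 (13 with scaling by library totals), with a median of 0.17. Of the 34, 2 rose, against 1.96% of all tested miRNAs. The 6 tested miR-30 strands were all above 0 (4 with scaling by library totals) with a median of 0.15, and the 9 let-7 strands had a median of -0.07, with none passing in either. The 4 other miRNAs reported to undergo target-directed degradation had a median of 0.16 and none passed. Their log2 changes ran from -0.47 (miR-503-5p) to 0.33 (miR-335-3p), with 3 above 0 and 1 below. The sensory miR-183 cluster had 3 members above 0, with a median of 0.45. None of the 3 passed without the block, and 2 rose with it, against 2.42% of all tested miRNAs. The summed level of the cluster was 122 to 167 CPM in WT and 140 to 222 CPM in the double mutant, so the groups overlapped.

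Both mutations were also studied alone, against the same 3 WT libraries, and the values of each comparison are given side by side. Without Cyrano alone (CyrKO) 6 of 668 tested miRNAs changed (0.898%), and with the Cdr1as site mutation alone (Cdr1as671) 15 of 665 (2.26%). miR-7a-5p had a log2 change of 5.34 in CyrKO and of 0.22 (adjusted p = 0.36) in Cdr1as671, beside 6.32 in the double mutant. For miR-7b-5p the values were 5.56, 0.21 and 6.50. For miR-409-3p they were 1.51, -0.05 and 1.50, for miR-411-3p 1.01, 0.03 and 0.89, and for miR-379-3p 0.88, 0.04 and 0.70. These 5 miRNAs rose in CyrKO and did not pass in Cdr1as671.

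Other miRNAs of the double mutant had their values on the other side. miR-409-5p had a log2 change of 0.02 in CyrKO and of -0.79 in Cdr1as671 (adjusted p = 0.021), and miR-466h-3p of 0.04 and 0.86 (adjusted p = 0.043). The strands of the miR-409 hairpin thus passed in different single mutants, the 3p strand in CyrKO and the 5p strand in Cdr1as671, and both passed in the double mutant. miR-671-5p rose in each mutant, to 226 ± 14.1 CPM in CyrKO and 219 ± 16.7 CPM in Cdr1as671 (SD, n = 3 each), near the 227 ± 6.82 CPM of the double mutant. miR-7a-1-3p had a log2 change of 0.00 in CyrKO and -0.16 in Cdr1as671, and miR-379-5p one of -0.01 and 0.23, so neither passed in a single mutant.

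The mutants were then compared directly in a fit of the 12 cerebellum libraries. Between the double mutant and CyrKO 16 of 688 miRNAs differed (2.33%), a count that was 2, 9 and 26 without double-mutant library 3, 2 and 1, and 7 and 9 without CyrKO library 1 and 3. Both miR-7 guides were higher in the double mutant, with log2 differences of 0.95 for miR-7a-5p and 0.91 for miR-7b-5p (SE 0.12 and adjusted p = 0.00039 for each), from 20026 ± 838 and 8136 ± 574 CPM in CyrKO (SD, n = 3 each). Also higher were miR-379-5p (0.52), miR-143-3p (0.56) and miR-466h-3p (0.79). miR-409-5p (-0.83), miR-3099-3p (-0.64) and miR-7a-1-3p (-0.52) were lower. miR-671-5p differed by 0.06 (SE 0.10, adjusted p = 0.75).

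Between the double mutant and Cdr1as671 5 of 688 differed (0.727%), all higher in the double mutant: miR-7a-5p by 6.08, miR-7b-5p by 6.28, miR-409-3p by 1.54, miR-411-3p by 0.85 and miR-379-3p by 0.65. miR-671-5p differed by 0.16 (SE 0.10, adjusted p = 0.65). Leaving out library 3 of Cdr1as671 raised the count to 59. Whether the double mutant departs from the sum of the single-mutant log2 changes was tested as an interaction, which 1 of 688 miRNAs passed (0.145%). For miR-671-5p the double-mutant change was below the sum by 0.75 on the log2 scale (interaction -0.75, SE 0.14, adjusted p = 0.043), and with the replicate block the adjusted p was 0.10. The miR-7 guides were above the sum, miR-7a-5p by 0.73 (SE 0.17) and miR-7b-5p by 0.70 (SE 0.17), with an adjusted p of 0.17 for both.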

How the data were processed

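Small RNAs of 18 to 32 nt from 5 ug of total RNA were sequenced, per the labels' protocols. The submitters' processing notes name cutadapt and DESeq2 1.10; for read assignment, miRNA annotation and genome build the tool or release is not given in the sources used here. Deposited by the authors were raw counts per miRNA and library, a signal made of counts divided by size factors per the file headers, and their own log2 fold changes and p-values. Only mature miRNA names are counted, so trimmed or tailed forms are not separated.

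edgeR 4.0.16 in R 4.3.3 was run on the counts (filterByExpr, minimum count 10 and total 15; TMM; robust quasi-likelihood F-test; Benjamini-Hochberg, threshold 0.05). SE is the log2 change over the square root of F. CPM is without TMM. Strand ratios, log2((5p + 0.5)/(3p + 0.5)), were tested with limma 3.58.1, and seed-family sums with edgeR. Steps were tested on simulated data. RefSeq matched 1573 mature names, with 75.7% of the reads. Host genes are from the GENCODE annotation of GRCm38. Except in the strand-ratio fit with the block, p-values measure the spread between biological replicates, which the series' design states. For the replicate block, deviations from the group mean of same-numbered WT and double-mutant libraries correlated at 0.64, 0.46 and 0.49 over 408 miRNAs. Of the differently numbered pairs 1 was also positive, WT 2 with double mutant 3 at 0.40, and the others were negative. Deviations from a group mean cancel out over its libraries, so some negative correlations are forced and these values do not establish a pairing. Alternatives covered scaling, filtering, DESeq2 1.42.0, voom, the replicate block, an erythroid covariate and leaving out each library.

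Named were the miR-7 and miR-671 strands, all miRNAs past the threshold, the 6 next by p, the 6 lowest in p among those past it only with the block, the 10 most abundant and up to 4 members per list. miR-411-5p, miR-329-5p, miR-223-3p, miR-448-3p and miR-1298-5p were chosen after seeing their values. The members and lists were chosen with earlier results of these data known. Some members of the let-7 and miR-30 lists, and some other miRNAs, were not analysed here.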

Additional observations from a re-analysis of the deposited data

Results flagged for a closer look

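miR-671-5p differed between genetic backgrounds. The effect of the Cdr1as site mutation on it was smaller without Cyrano than with it, by a test of the difference itself (interaction log2 change -0.747, adjusted p = 0.043, edgeR over the 12 cerebellum libraries). In each single mutant and in the double mutant its mean was 219 to 227 CPM, against 122 CPM in WT. The call was lost with the replicate block and in all but 2 of the 12 fits without 1 library, those without Cdr1as671 library 2 or 3.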

How the results depend on the processing

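The count of miRNAs that changed (17) was 31 with scaling by library totals, 61 without the filter, 50 with DESeq2, 10 with voom, 35 with the replicate block, 43 in the authors' deposited table and 6 to 58 without 1 library. The 13 that rose became 29 without the filter, 8 with voom and 6 to 30 without 1 library. The 4 that fell became 21 with totals, 32 without the filter, 7 at a mean of at least 10 CPM, 31 with DESeq2, 2 with voom, 19 with the block, 10 with the erythroid covariate, 24 in the deposited table and 0 to 28 without 1 library. The 9 strand ratios became 40 with the block and 6 to 30 without 1 library. The 9 seed families became 56 with totals, 43 without the filter, 38 with DESeq2, 18 with the block and 4 to 44 without 1 library. The 16 differences from CyrKO became 25 with totals, 26 without the filter, 35 with DESeq2 and 2 to 26 without 1 library. The 5 from Cdr1as671 became 8 with totals and 5 to 59 without 1 library. The 1 interaction became 4 without the filter, 4 with DESeq2, 0 with the block (28 at an unadjusted p under 0.05) and 0 to 19 without 1 library. miR-7a-5p, miR-7b-5p, miR-409-3p, miR-411-3p, miR-671-5p and miR-379-3p kept direction and call in every alternative that tested them. Over all called miRNAs 234 of 303 alternative values kept both, 69 lost the call and 0 reversed. Log2 changes that reversed were -0.0079 for miR-7a-2-3p with totals, and 0.14 for miR-142-3p, 0.022 for miR-451a and 0.08 for miR-144-3p with the erythroid covariate. Without 1 library they ran from -0.41 to 0.26 for miR-142-3p, from -1.03 to 0.17 for miR-451a, from -1.04 to 0.19 for miR-144-3p and from -0.074 to 0.0053 for let-7g-5p; none of these miRNAs passed in the main test, and the cause was not tested.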

Other observations

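Some miRNAs passed only with the replicate number as a block, 18 in all, of which 3 rose and 15 fell. Passenger strands of let-7, the family of differentiation-linked miRNAs, were among those that fell. let-7b-3p was at 237, 140 and 182 CPM in WT and at 116, 96.6 and 77.9 CPM in the double mutant, so every mutant library was below every WT library (log2 change -0.85 with the block, adjusted p = 0.0068; -0.87 and 0.14 without it). let-7f-2-3p was at 92, 68.1 and 71.3 CPM in WT and at 56.6, 49.9 and 47.0 CPM in the double mutant (block adjusted p = 0.023). The guide strands let-7b-5p and let-7f-5p had log2 changes of -0.06 and 0.02 and did not pass.

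miR-199a-5p, a miRNA of mesenchymal cells, was at 58.9, 50.9 and 55.5 CPM in WT and at 45.3, 32.1 and 27.5 CPM in the double mutant (block adjusted p = 0.023). miR-20a-5p of the miR-17~92 cluster was at 411, 280 and 382 CPM in WT and at 250.2, 194 and 154 CPM in the double mutant (block adjusted p = 0.022). miR-1224-5p, from a short intron, was higher in the double mutant, at 23.0, 26.4 and 29.5 CPM against 16, 20.8 and 20.7 CPM (block adjusted p = 0.023). The groups did not overlap for any of these 5, which were named by their low p in the block fit of the same libraries. Of all tested miRNAs, 21.8% had every double-mutant library below every WT library and 4.83% every one above.

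Of the 7 miRNAs with a log2 change of at least 1 in size, 3 passed. Of those that did not, miR-1298-5p went from a mean of 70.6 to 21.7 CPM (adjusted p = 0.72) and miR-448-3p from 8.66 to 3.05 CPM (adjusted p = 0.67), both with wide spread between libraries.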
